A study of Mus musculus with 9 samples.

Results

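The receptor for the vasodilator peptide adrenomedullin was followed through 7 genes in mouse squamous cell carcinoma (SCC) cells that differ in focal adhesion kinase (FAK). The 7 are Calcrl, the receptor itself, its accessory proteins Ramp1, Ramp2 and Ramp3, the ligand genes Adm and Adm2, and Crcp, a coupling protein. They were chosen by name from the 19044 genes of the count table, and Calcrl was chosen because its level was higher in FAK-WT-expressing cells than in both other lines. Its values in those 2 comparisons are therefore given as a description, without a test. All 7 genes were in the table, and 4 of the 7 had a mean level of at least 1 CPM (counts scaled to library size) over the 9 libraries.

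RNA was sequenced from 3 SCC cell lines, with 3 biological replicates of each. SCCs raised in K14CreER FAK flox/flox FVB mice by chemical carcinogenesis (dimethylbenz[a]anthracene, then 12-O-tetradecanoylphorbol 13-acetate) were put into culture, and 4-hydroxytamoxifen was used there to delete FAK. FAK-/- cells carry that deletion and no re-introduced FAK. The FAK-WT and FAK-kd lines derive from a single FAK-/- clone, into which wild-type or kinase-deficient FAK was introduced by retrovirus under hygromycin selection, so all 3 lines share the Cre-mediated deletion. FAK-WT over FAK-/- cells asks what re-expressed FAK changes, FAK-WT over FAK-kd cells asks what its kinase activity changes, and FAK-kd over FAK-/- cells asks what is left without that activity. The first 2 comparisons share the FAK-WT libraries, and each of them shares a group with the last. Each form of FAK was sequenced in a single line. Effects of the form and other differences between the lines therefore cannot be told apart. Past the threshold means that the adjusted p did not exceed 0.05 and that the log2 fold change reached 1 or -1.

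Calcrl encodes a class B G protein-coupled receptor that does not reach the cell surface as a working receptor without a receptor activity-modifying protein (RAMP). Pairing with Ramp1 gives a receptor that prefers calcitonin gene-related peptide (CGRP), and pairing with Ramp2 or Ramp3 gives adrenomedullin receptors, all of which signal mainly through Gs and cyclic AMP. The receptor is best known from blood and lymphatic endothelium, and adrenomedullin is also made by many tumours, often under hypoxia.

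The stretches upstream of Calcrl, Ramp3 and Adm2 are shown first, since these 3 members differed between the lines, in unlike ways. They are RefSeq sequence of build GRCm38.p6 and lie within 250 bases before the RefSeq start, without annotated exons. Calcrl is read on the minus strand at chr2:84425412-84425516, Ramp3 on the plus strand at chr11:6658283-6658520 and Adm2 on the plus strand at chr15:89322470-89322719. Capitals mark the ETS core (GGAAG) and the GC box (GGGCGG) on either strand, so that a match on the opposite strand reads CTTCC or CCGCCC.
Calcrl: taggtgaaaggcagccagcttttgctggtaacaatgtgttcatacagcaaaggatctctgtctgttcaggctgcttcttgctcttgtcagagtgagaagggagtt
Ramp3: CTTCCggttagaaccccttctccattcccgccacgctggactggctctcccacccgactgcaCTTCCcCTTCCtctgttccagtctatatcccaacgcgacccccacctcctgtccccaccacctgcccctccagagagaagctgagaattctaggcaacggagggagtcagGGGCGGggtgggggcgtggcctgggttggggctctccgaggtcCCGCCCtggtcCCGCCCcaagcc
Adm2: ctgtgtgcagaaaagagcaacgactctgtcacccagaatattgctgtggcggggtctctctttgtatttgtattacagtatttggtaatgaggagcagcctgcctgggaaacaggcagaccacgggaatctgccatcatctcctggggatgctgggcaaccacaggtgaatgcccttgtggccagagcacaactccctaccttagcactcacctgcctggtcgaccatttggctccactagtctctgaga
The Ramp3 stretch held 3 ETS cores and 3 GC boxes, and the Adm2 stretch held neither motif. The Calcrl stretch ends 145 bases short of the RefSeq start, where an annotated exon begins. Between there and the start, Calcrl had 1 ETS core at -65 to -61 and 1 GC box at -83 to -78, counted from the RefSeq start. Over the full 250 bases of the 5 members with a promoter entry, Calcrl, Ramp3 and Adm held both motifs, while 64.1% of 32851 promoters held an ETS core and 32.7% a GC box. AP-1 (TGANTCA, 6.75% of promoters), the cyclic AMP response element (TGACGTCA, 1.55%), its half-site TGACG (17.8%, contained in the full element), the hypoxia response core ACGTG (16.6%) and the TATA box TATAAA (12.4%) had no match in these 5. The matches are letters in these windows and describe no binding.

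Libraries held 25304994 to 37264636 counts in 8 cases. FAK-WT replicate 1 held 779755, or 2.31% of the median of the other 8, so that a count of 3, taken as the floor, equals 3.78 CPM there and 0.0798 to 0.118 CPM elsewhere. FAK-/- replicate 3 also stood apart from its group. Ptk2, the FAK gene, averaged 21.6 CPM in FAK-/- cells against 215 with FAK-WT and 163 with FAK-kd. The labels give the low level in FAK-/- cells but no order between the other lines. Ptk2 was higher by 0.40 on the log2 scale (adjusted p = 0.00163, edgeR) in FAK-WT over FAK-kd cells. The FAK-WT and FAK-kd lines thus also differed in FAK RNA level. The epithelial markers Krt5, Krt14, Krt18, Krt6a and Cdh1 never exceeded 8 counts in any library, and Trp63 and Epcam were not analysed here. Krt8 reached 46 counts and averaged 0.680, 0.227 and 1.02 CPM in FAK-WT, FAK-/- and FAK-kd cells. It was higher past the threshold in FAK-kd over FAK-/- cells (all genes, 2.01%). Krt6a was higher past it in FAK-WT over FAK-kd cells (all genes, 5.26%) with edgeR but not with DESeq2. Among 7 of 9 keratinocyte markers in the table, the integrin gene Itga6 (172, 289 and 261 CPM in FAK-WT, FAK-/- and FAK-kd cells) carried nearly all of the summed level. The keratinocyte sum ranged from 170 to 175 CPM in FAK-WT libraries, 283 to 297 in FAK-/- libraries and 252 to 274 in FAK-kd libraries. Leukocyte markers (3 of 5 in the table) summed to 0 to 3.36 CPM, and the 1 lymphatic marker of 4 in the table, Flt4, had at most 1 count.

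Calcrl (ENSMUSG00000059588, chr2:84330626-84425411, minus strand, GENCODE on mm10) was highest in FAK-WT cells. Its level was 8.81, 14.6 and 17.0 CPM in FAK-WT replicates 1, 2 and 3. The 3 FAK-/- libraries had 1.80, 1.46 and 0.896 CPM, and the 3 FAK-kd libraries 1.29, 1.62 and 2.20 CPM. The lowest FAK-WT value lay above every value of the other 2 lines, whose ranges overlapped. That lowest value rests on 7 counts, with an exact Poisson 95% interval of 3.54 to 18.2 CPM that covers counting error only, whereas FAK-WT replicates 2 and 3 had 547 and 591 counts. The means were 13.5 ± 4.22 CPM in FAK-WT cells, 1.38 ± 0.455 in FAK-/- cells and 1.70 ± 0.459 in FAK-kd cells (SD, n = 3 each).

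On the log2 scale the fitted Calcrl difference was 3.42 (SE 0.27), or 10.7-fold, in FAK-WT over FAK-/- cells and 3.13 (SE 0.26), or 8.72-fold, over FAK-kd cells. Leaving out any 1 library gave 3.21 to 3.69 and 2.93 to 3.36. FAK-kd over FAK-/- cells, which had no part in the choice of the gene, differed by 0.30 (SE 0.27, 95% interval -0.28 to 0.87, Benjamini–Hochberg-adjusted p = 0.587 with edgeR). That interval reaches neither a doubling nor a halving of the level, but it does not show that both lines are alike. In bulk RNA, fewer cells that carry a transcript and less RNA per cell cannot be told apart.

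**Figure D1:**
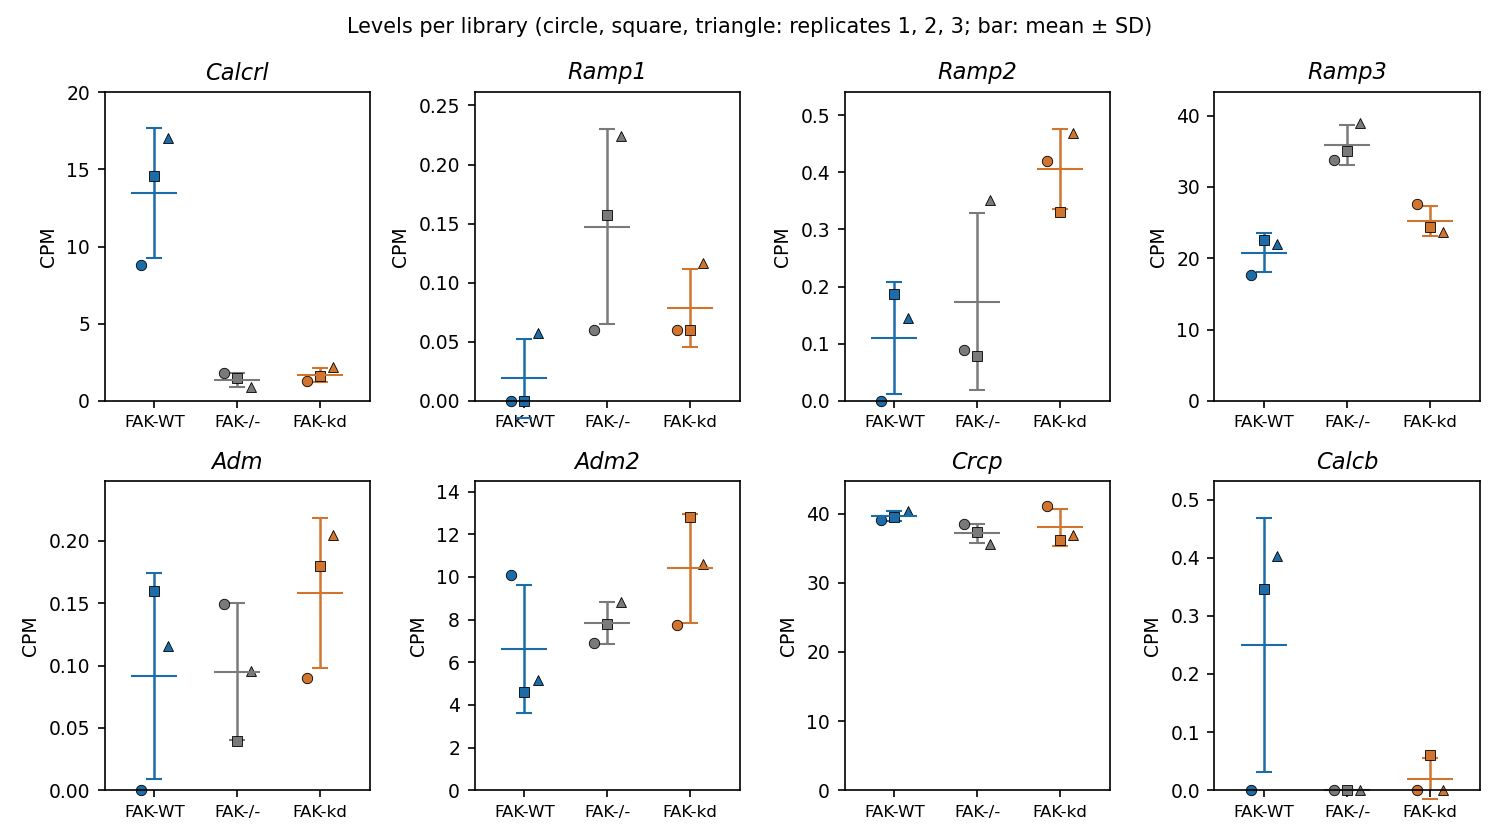
Level in CPM (counts scaled to library size, y axis from 0, own scale per panel) of the 7 members and the CGRP gene Calcb in each library of FAK-WT, FAK-/- and FAK-kd cells, with the mean and SD of 3 libraries. Calcrl was at 8.81 CPM or more in FAK-WT libraries and at 2.20 or less elsewhere, Ramp3 was highest in FAK-/- cells, and Ramp1, Ramp2, Adm and Calcb stayed under 0.5 CPM.

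Of the accessory proteins, Ramp3 was the one found at a substantial level, and it was lowest where Calcrl was highest. Ramp3 (ENSMUSG00000041046, chr11:6658521-6677475, plus strand) had 17.6, 22.6 and 22.1 CPM in the FAK-WT libraries. It had 33.7, 35.0 and 39.0 CPM in FAK-/- libraries and 27.6, 24.4 and 23.7 CPM in FAK-kd libraries. None of the 3 groups overlapped another. Means were 20.8 ± 2.74 in FAK-WT cells, 35.9 ± 2.78 in FAK-/- cells and 25.3 ± 2.09 CPM in FAK-kd cells (SD, n = 3).

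Ramp3 fell by 0.71 on the log2 scale (SE 0.11, adjusted p = 0.000219, edgeR) in FAK-WT over FAK-/- cells and by 0.51 (SE 0.10, adjusted p = 0.00448, edgeR) in FAK-kd over FAK-/- cells. An adjusted p of 0.05 or below alone was reached by 18% and 7.84% of all genes in these comparisons. Both Ramp3 changes stayed under the fold-change minimum of 1 on the log2 scale that the study set. Ramp3 differed by -0.20 (SE 0.11, adjusted p = 0.233, edgeR) in FAK-WT over FAK-kd cells, where 17.7% of all genes had an adjusted p of 0.05 or below. Expression of either form of FAK thus went with a lower Ramp3 level than in FAK-/- cells, and the difference between the forms was not resolved. A pseudogene on the opposite strand, Gm11978, overlaps 101 bases of Ramp3 exons and shares 5.37% of its 31-base words, the length that kallisto matches by default, at 0.00763 CPM.

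Ramp2 and Ramp1, which would make the other receptor types, were near the floor. Ramp2 (ENSMUSG00000001240, chr11:101246028-101259546, plus strand) had 0, 7 and 5 counts in FAK-WT libraries, 3, 2 and 11 in FAK-/- libraries and 14, 11 and 16 in FAK-kd libraries. FAK-kd values all lay above FAK-WT values, with differences of -1.30 (SE 0.63, adjusted p = 0.191, edgeR) in FAK-WT over FAK-kd and 1.19 (SE 0.57, adjusted p = 0.254, edgeR) in FAK-kd over FAK-/- cells. FAK-/- replicate 3, the library that stood apart, had the highest FAK-/- count of 11, and without it FAK-kd over FAK-/- cells came to 2.20 (adjusted p = 0.0304, edgeR). Its exons share 1103 of 3301 bases with Vps25 on the same strand, a gene at 34.5 CPM, and 31.7% of its 31-base words occur in Vps25, so that the counting could split reads between them. Ramp1 (ENSMUSG00000034353, chr1:91179822-91225196, plus strand) had 0, 0 and 2 counts in FAK-WT libraries, 2, 4 and 7 in FAK-/- libraries and 2, 2 and 4 in FAK-kd libraries. No difference was detectable at this depth, the closest being -2.24 (SE 1.05, adjusted p = 0.174, edgeR) in FAK-WT over FAK-/- cells. The counts of 0 in FAK-WT replicate 1 allow up to 3.78 CPM for either gene.

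Levels of different genes are compared per length, as CPM per kb of the median coding transcript. Ramp3 made up 98.4% to 100% of the summed RAMP level in FAK-WT libraries, 97.5% to 99.3% in FAK-/- libraries and 95.8% to 97.2% in FAK-kd libraries. The ratio of Ramp3 to Calcrl per length was 5.80 ± 1.28 in FAK-WT cells, 103 ± 46.9 in FAK-/- cells and 56.7 ± 19.2 in FAK-kd cells (SD, n = 3). Accessory protein RNA was thus in excess of receptor RNA in every library, with the lowest ratio at 4.65 in a FAK-WT library and the highest at 156 in a FAK-/- library. The ratio carries the Calcrl difference that chose the gene, and it is a description.

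Of the ligand genes among the members, Adm2 did not rise with the receptor, and Adm was too low to compare. The CGRP gene Calcb, which is not a member, is described further below. Adm (ENSMUSG00000030790, chr7:110627661-110629820, plus strand), which encodes adrenomedullin, had 0, 6 and 4 counts in FAK-WT libraries, 5, 1 and 3 in FAK-/- libraries and 3, 6 and 7 in FAK-kd libraries. Its 3 differences were 0.44, -0.23 and 0.67 in FAK-WT over FAK-/-, FAK-WT over FAK-kd and FAK-kd over FAK-/- cells, with standard errors of 0.67 to 0.74, and none was detectable at this depth.

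Adm2 (ENSMUSG00000054136, chr15:89322720-89324731, plus strand), the gene of adrenomedullin 2, also called intermedin, was the measurable ligand. It had 10.1, 4.60 and 5.16 CPM in FAK-WT libraries, 6.89, 7.81 and 8.84 in FAK-/- libraries and 7.74, 12.8 and 10.6 in FAK-kd libraries. FAK-WT replicates 2 and 3 were the lowest of all 9 libraries, whereas FAK-WT replicate 1, with 8 counts and an exact Poisson 95% interval of 4.35 to 19.8 CPM, fell within the FAK-kd range. Means were 6.61 ± 3.01 in FAK-WT cells, 7.84 ± 0.972 in FAK-/- cells and 10.4 ± 2.55 CPM in FAK-kd cells (SD, n = 3).

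Adm2 fell by 1.02 on the log2 scale (SE 0.21, adjusted p = 0.00326, edgeR) in FAK-WT over FAK-kd cells, just past the fold-change minimum. The change came under that minimum without FAK-kd replicate 2 (-0.81), FAK-kd replicate 3 (-0.97) or FAK-WT replicate 3 (-0.999), and without FAK-WT replicate 2 (-0.85) its adjusted p was 0.057. Without FAK-WT replicate 1 it was -1.09. FAK-WT over FAK-/- cells differed by -0.61 (SE 0.21, adjusted p = 0.064, edgeR) and FAK-kd over FAK-/- cells by 0.41 (SE 0.19, adjusted p = 0.235, edgeR).

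Crcp (ENSMUSG00000025532, chr5:130029290-130060789, plus strand) encodes the CGRP receptor component protein, which couples the receptor to its signalling and is also a subunit of RNA polymerase III. It was level across the lines, at 39.0, 39.6 and 40.4 CPM in FAK-WT libraries, 38.5, 37.3 and 35.6 in FAK-/- libraries and 41.1, 36.2 and 36.9 in FAK-kd libraries. Its differences were 0.10 (95% interval -0.09 to 0.30) in FAK-WT over FAK-/-, 0.07 (-0.13 to 0.26) in FAK-WT over FAK-kd and 0.03 (-0.15 to 0.22) in FAK-kd over FAK-/- cells. A change as large as the fold-change minimum lay outside all 3 intervals. Among 10 other genes of the RNA polymerase III apparatus none was past the threshold, against 5.38%, 5.26% and 2.01% of all genes. A list this short can hold 0 calls at such shares. An unadjusted p under 0.05 with edgeR was found for 1, 3 and 1 of them, and DESeq2 also called 0 in each comparison.

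**Figure D2:**
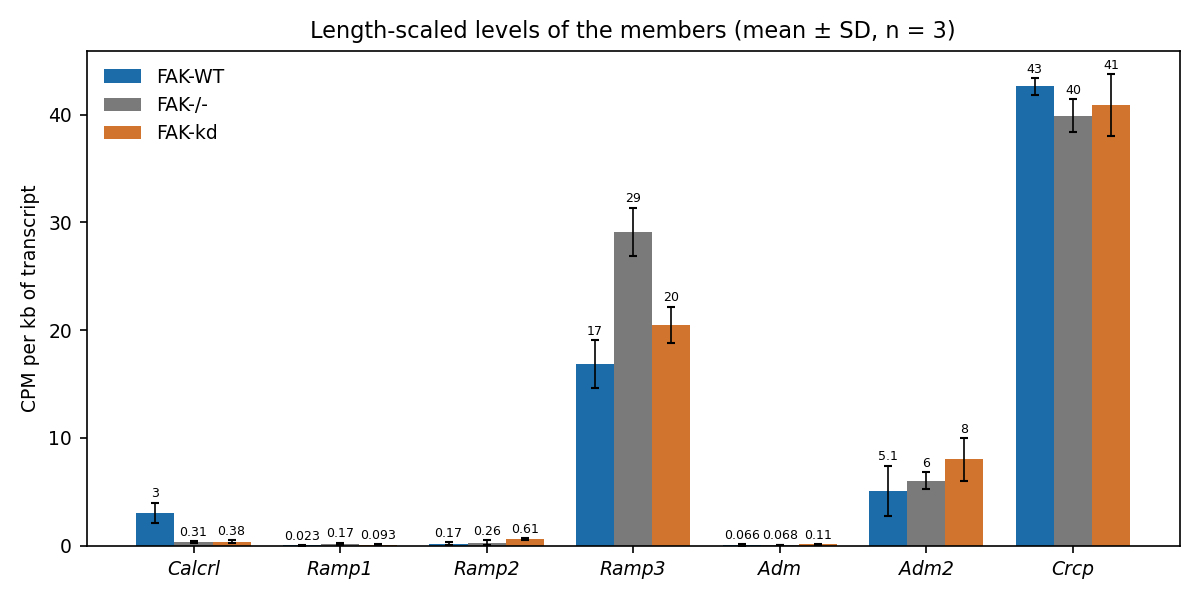
Mean level of the 7 members in CPM per kb of the median coding transcript (y axis, from 0) in FAK-WT, FAK-/- and FAK-kd cells, with SD over 3 libraries and the mean printed above each bar. Crcp and Ramp3 had the highest levels in all 3 lines, and Calcrl averaged 3.04 CPM per kb in FAK-WT cells against 0.313 and 0.384 in FAK-/- and FAK-kd cells.

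Ordered per length in FAK-WT cells, Crcp (42.6 ± 0.759 CPM per kb) stood above Ramp3 (16.8 ± 2.22), and Ramp3 stood above Adm2 (5.09 ± 2.32) and Calcrl (3.04 ± 0.953). Adm2 at 3.55 to 7.76 and Calcrl at 1.99 to 3.85 CPM per kb overlapped. In FAK-/- cells, Calcrl came to 0.313 ± 0.103 CPM per kb and overlapped Ramp2 at 0.262 ± 0.234. In FAK-kd cells, Calcrl at 0.384 ± 0.104 lay below Ramp2 at 0.614 ± 0.107 CPM per kb, without overlap. With the longest transcript that order was lost, at 0.348 CPM per kb for Calcrl and 0.345 for Ramp2. Crcp, Ramp3 and Adm2 held the top places in all 3 lines, with Crcp above Ramp3. With the longest transcript in place of the median one, Crcp came to 24.9 CPM per kb in FAK-/- cells, below Ramp3 at 29.1.

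In FAK-WT over FAK-/- cells 1 of the 7 members, Calcrl, was past it, against 5.38% of all genes (2.32% higher and 3.06% lower), a count that the choice of Calcrl fixed. In FAK-WT over FAK-kd cells 2 of 7 were past it, Calcrl higher and Adm2 lower, against 5.26% of all genes (2.37% higher and 2.89% lower), and the choice of the gene fixed the Calcrl call here too. In FAK-kd over FAK-/- cells 0 of 7 were past it with edgeR and 0 with DESeq2, against 2.01% of all genes (0.914% higher and 1.09% lower), and 2 of 7 (Ramp3 and Adm2) had an unadjusted p under 0.05. The median log2 difference of the members was -0.12, -0.23 and 0.30 in the 3 comparisons, beside 0 over all genes.

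**Figure D3:**
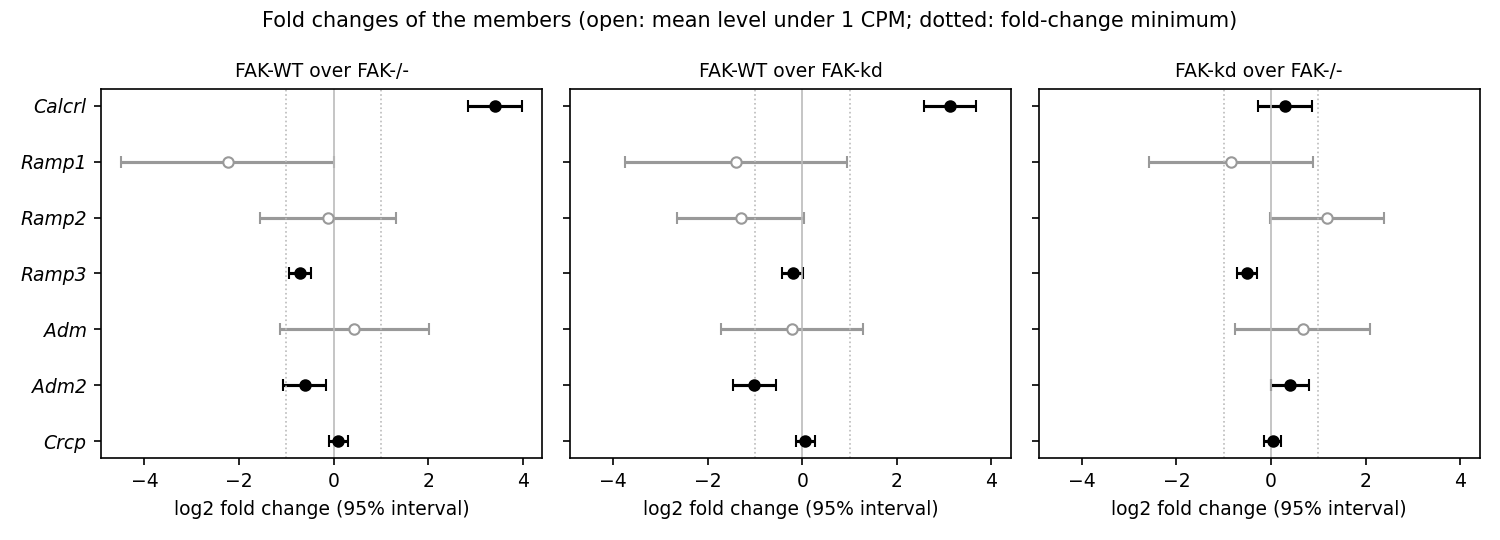
Log2 fold change (x axis) of the 7 members in the 3 comparisons with 95% intervals, filled for a mean level of at least 1 CPM and open below it, with dotted lines at the fold-change minimum of 1 in size. Calcrl stood at 3.42 and 3.13 in the comparisons with FAK-WT cells and at 0.30 in FAK-kd over FAK-/- cells, and the Adm2 point in FAK-WT over FAK-kd cells was at -1.02.

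Of 10 other peptide ligands, decoy receptors and peptidases listed for this system, 8 were in the table. Calcb, which encodes a CGRP, had 0, 13 and 14 counts in FAK-WT libraries, 0 in each FAK-/- library and 0, 2 and 0 in FAK-kd libraries. It rose in FAK-WT over FAK-/- cells (adjusted p = 0.0043, edgeR) by at least 2.46-fold against 3 counts in each FAK-/- library, and over FAK-kd cells (adjusted p = 0.0143, edgeR). DESeq2 gave it no adjusted p, and 2.62% of its 31-base words occur in Calca, which was not analysed here. Its mean in FAK-WT cells was 0.250 ± 0.218 CPM.

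Ackr3, a scavenging receptor for chemokines that also takes up adrenomedullin, was lower in FAK-WT cells. Its level was 17.6, 12.1 and 12.3 CPM in FAK-WT libraries, 20.6, 19.8 and 18.0 in FAK-/- libraries and 18.5, 17.9 and 19.4 in FAK-kd libraries. FAK-WT libraries lay below all others. Ackr3 fell by 0.63 on the log2 scale over FAK-/- cells (SE 0.11, adjusted p = 0.000809, edgeR) and by 0.57 over FAK-kd cells (SE 0.11, adjusted p = 0.00181, edgeR), both under the fold-change minimum. FAK-kd over FAK-/- cells differed by -0.06 (SE 0.10, adjusted p = 0.76, edgeR). The peptidase genes Ece1 and Ide were high in all lines, at 52.8, 45.2 and 44.8 CPM for Ece1 and 63.6, 53.4 and 61.4 CPM for Ide in FAK-WT, FAK-/- and FAK-kd cells, and neither passed the test. Gpr182, Mme and Iapp averaged at most 0.509 CPM in any line.

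The wider pathway list held 89 genes for these partners, peptide processing, other class B receptors, receptor regulation and cyclic AMP signalling, and 77 were in the table. In FAK-WT over FAK-/- cells 2 of 77 were higher (Arrb1 and Calcb) and 6 lower past the threshold (10.4% in all, against 5.38% of all genes), with a median log2 difference of -0.09 beside 0 over all genes. In FAK-WT over FAK-kd cells 2 were higher (Rapgef3 and Calcb) and 5 lower (Arrb1, Adcy3, Pde4d, Glp1r and Pde4b), or 9.09% in all against 5.26% of all genes, with a median of -0.09. In FAK-kd over FAK-/- cells 1 was higher (Arrb1) and 2 lower (Rapgef3 and Akap12), or 3.9% against 2.01% of all genes, with a median of -0.02. Of 8 genes for processing and amidation of peptide hormones none was past the threshold, while 3, 2 and 2 had an unadjusted p under 0.05 with edgeR, and DESeq2 called 0 in each comparison.

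Among the other class B receptors Glp1r, the receptor for glucagon-like peptide that also raises cyclic AMP, ran against Calcrl. Glp1r averaged 0.939 ± 0.817 CPM in FAK-WT cells, 6.40 ± 0.418 in FAK-/- cells and 8.76 ± 1.15 in FAK-kd cells (SD, n = 3). It fell by 2.22 on the log2 scale (SE 0.21, adjusted p = 2.74e-06, edgeR) in FAK-WT over FAK-/- cells and by 2.67 (SE 0.21, adjusted p = 3.95e-07, edgeR) over FAK-kd cells. It was at 0 counts in FAK-WT replicate 1, which allows up to 3.78 CPM, and at 1.49 and 1.33 CPM in FAK-WT replicates 2 and 3.

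Arrb1, a beta-arrestin that ends signalling of G protein-coupled receptors, was higher with both forms of FAK. It averaged 3.54 ± 0.927 CPM in FAK-WT cells, 0.876 ± 0.0489 in FAK-/- cells and 10.8 ± 0.621 in FAK-kd cells. The differences were 2.17 (SE 0.19, adjusted p = 8.08e-07, edgeR) in FAK-WT over FAK-/-, -1.44 (SE 0.17, adjusted p = 1.69e-05, edgeR) in FAK-WT over FAK-kd and 3.61 (SE 0.18, adjusted p = 9.69e-09, edgeR) in FAK-kd over FAK-/- cells.

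Of 39 cyclic AMP core genes in the table, 0 were higher and 5 lower past the threshold in FAK-WT over FAK-/- cells, 1 higher and 3 lower over FAK-kd cells, and 0 higher and 2 lower in FAK-kd over FAK-/- cells. These are 12.8%, 10.3% and 5.13% of the list, beside 5.38%, 5.26% and 2.01% of all genes. The phosphodiesterase genes Pde4b and Pde4d, whose products break down cyclic AMP, averaged 0.475 and 1.10 CPM in FAK-WT cells, 2.91 and 2.88 in FAK-/- cells and 1.75 and 4.15 in FAK-kd cells. Pde4b fell by 2.07 on the log2 scale (SE 0.34, adjusted p = 0.00042, edgeR) over FAK-/- cells and by 1.34 over FAK-kd cells (SE 0.34, adjusted p = 0.0107, edgeR), the latter with an adjusted p of 0.0507 without FAK-kd replicate 1 and 0.144 without FAK-WT replicate 2. Pde4d fell by 1.48 (SE 0.23, adjusted p = 0.000308, edgeR) and by 2.01 (SE 0.23, adjusted p = 1.64e-05, edgeR) in the same order. Adcy3, an adenylyl cyclase that makes cyclic AMP, fell by 1.70 over FAK-kd cells (SE 0.32, adjusted p = 0.00123, edgeR). Over FAK-/- cells it fell by 1.01 (SE 0.32, adjusted p = 0.0392, edgeR), a call lost in 8 of the 9 fits that left out 1 library, with values from -0.91 to -1.15 among those 8 fits. The other cyclase genes with an adjusted p of 0.05 or below over FAK-/- cells (edgeR) moved in both directions and stayed under the fold-change minimum, with Adcy7 at 0.35 and Adcy8 at 0.41, and Adcy6 at -0.42 and Adcy9 at -0.62. These 4 were named after their values were seen, and the adjusted p of Adcy8 was 0.0499, reaching 0.111 with 1 library left out. Rapgef3, a cyclic AMP sensor, rose by 1.22 in FAK-WT over FAK-kd cells (SE 0.21, adjusted p = 0.000681, edgeR) and fell by 1.09 in FAK-kd over FAK-/- cells (SE 0.20, adjusted p = 0.00262, edgeR), the latter coming to -0.93 and under the fold-change minimum without FAK-kd replicate 1. Akap12, which encodes an anchoring protein for the kinase that cyclic AMP activates, had 0 counts in every FAK-WT and FAK-kd library and 1.46 ± 0.811 CPM in FAK-/- cells (SD, n = 3). Against 3 counts in each library at 0, it was at least 16.4-fold lower in FAK-kd cells and at least 1.11-fold lower in FAK-WT cells, where the bound is set by FAK-WT replicate 1.

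**Figure D4:**
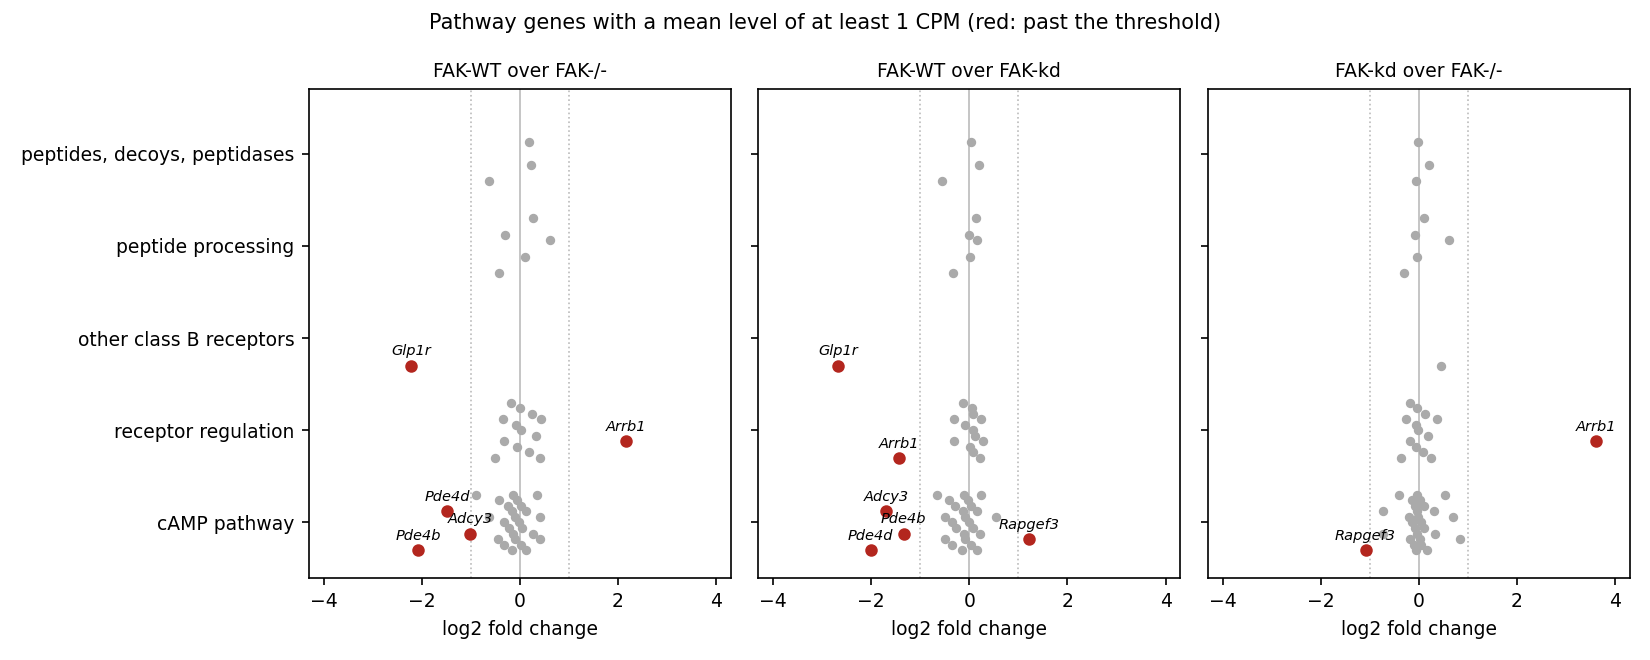
Log2 fold change (x axis) of the pathway genes with a mean level of at least 1 CPM, in rows by role (vertical offset within a row only separates points), for the 3 comparisons, with genes past the threshold in red and dotted lines at a fold change of 1 in size. Most points lie between the dotted lines, with Glp1r at -2.22 and -2.67 and Arrb1 at 2.17, -1.44 and 3.61.

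Among 13 genes known as targets of CREB, the factor that cyclic AMP activates, 1 was higher (Ppargc1a) and 2 lower (Nr4a2 and Pde4b) in FAK-WT over FAK-/- cells, with a median of -0.15 and against 5.38% of all genes. Nr4a2, an orphan nuclear receptor gene, fell by 1.19 there (SE 0.22, adjusted p = 0.00124, edgeR) and by 0.98 without FAK-/- replicate 3, too little for a call. In FAK-WT over FAK-kd cells 1 was higher (Ppargc1a) and 1 lower (Pde4b), with a median of 0.03 and against 5.26% of all genes. In FAK-kd over FAK-/- cells none was past the threshold with edgeR or DESeq2, and 5 had an unadjusted p under 0.05 with edgeR, against 2.01% of all genes past the threshold.

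Adm is a known hypoxia-responsive gene, and 18 others of that response were all in the table. In FAK-WT over FAK-/- cells 2 of 18 were higher and 2 lower (all genes, 2.32% and 3.06%), with a median of 0.30, and in FAK-WT over FAK-kd cells 2 were higher and 1 lower (all genes, 2.37% and 2.89%), with a median of 0.22. The carbonic anhydrase genes Car9 and Car12 were the higher pair, by 1.31 (SE 0.16, adjusted p = 2.48e-05, edgeR) and 1.30 (SE 0.13, adjusted p = 4.88e-06, edgeR) over FAK-/- cells. Over FAK-kd cells they were higher by 1.48 (SE 0.16, adjusted p = 7.75e-06, edgeR) and 3.58 (SE 0.15, adjusted p = 2.74e-10, edgeR). Epas1, the gene of the hypoxia-inducible factor HIF-2 alpha, fell by 2.78 (SE 0.12, adjusted p = 5.26e-10, edgeR) over FAK-/- and by 1.87 (SE 0.12, adjusted p = 2.61e-08, edgeR) over FAK-kd cells. Egln3, an oxygen-sensing prolyl hydroxylase gene, fell by 1.37 over FAK-/- cells (SE 0.13, adjusted p = 3.14e-06, edgeR). In FAK-kd over FAK-/- cells 0 of 18 were higher and 2 lower (Car12 and Egln3), against 0.914% and 1.09% of all genes, with a median of -0.03. Without the fold-change minimum, 15, 9 and 5 of the 18 had an adjusted p of 0.05 or below (edgeR) in FAK-WT over FAK-/-, FAK-WT over FAK-kd and FAK-kd over FAK-/- cells. The shares of all genes were 18%, 17.7% and 7.84%.

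The neighbours of Calcrl on chromosome 2 were read for a shared pattern. Tfpi, which encodes an inhibitor of tissue factor-driven coagulation, lies 7443 bases away at chr2:84432855-84476775. Its level was 6.29, 13.2 and 13.4 CPM in FAK-WT libraries, 5.84, 5.84 and 4.93 in FAK-/- libraries and 0.690, 1.83 and 0.615 in FAK-kd libraries. FAK-WT libraries were the highest, as for Calcrl, but FAK-kd libraries lay below FAK-/- libraries, and no group overlapped another. The FAK-WT replicate 1 value rests on 5 counts. Tfpi was higher by 1.18 on the log2 scale (SE 0.28, adjusted p = 0.00781, edgeR) in FAK-WT over FAK-/- cells and by 3.58 (SE 0.32, adjusted p = 1.14e-06, edgeR) over FAK-kd cells, and it fell by 2.40 (SE 0.31, adjusted p = 0.000135, edgeR) in FAK-kd over FAK-/- cells. The first of these had an adjusted p of 0.0655 without FAK-WT replicate 2 and 0.0711 without FAK-WT replicate 3. Without FAK-kd replicate 2, the other differences were 4.26 over FAK-kd cells and -3.08 in FAK-kd over FAK-/- cells. On the other side the nearest gene in the table, Gm13691, was 337580 bases away and at most 0.0185 CPM on average. None of the genes beside the other 6 members was past the threshold, against 5.38%, 5.26% and 2.01% of all genes in the 3 comparisons.

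**Figure D5:**
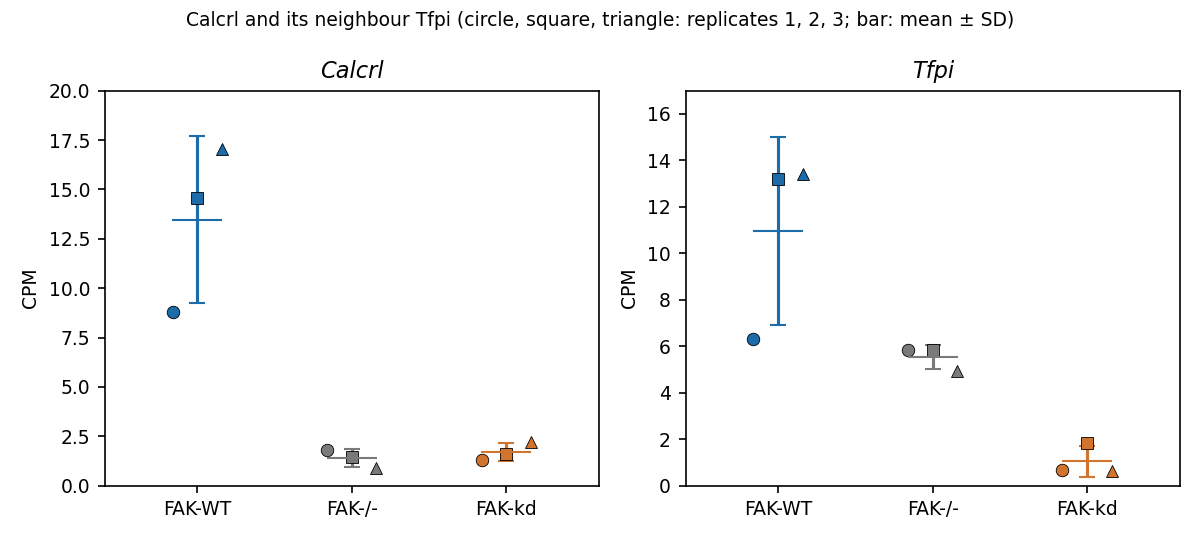
Level in CPM (y axis from 0) of Calcrl and of its neighbour Tfpi in each library of FAK-WT, FAK-/- and FAK-kd cells, with the mean and SD of 3 libraries. FAK-WT libraries were highest for both genes, while FAK-kd libraries reached at most 1.83 CPM for Tfpi, below the FAK-/- range of 4.93 to 5.84 CPM.

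The genes whose pattern was most like Calcrl were ranked by Pearson r of log2 CPM over the 9 libraries among 12144 genes. Rhox2h, a homeobox gene of the X chromosome, led with r = 0.997, at 4.29 ± 1.54 CPM in FAK-WT cells, 0.0662 ± 0.0609 in FAK-/- cells and 0.118 ± 0.0495 in FAK-kd cells. It was followed by Lap3 (r = 0.989), Ahcyl1 (r = 0.986), the chemokine gene Ccl2 (r = 0.985) and Asns (r = 0.983), and then by Clcn5, Cpox, Got1, Ero1l and Slc2a9 at r = 0.982 to 0.980. Ccl2 had 9.64 ± 2.92 CPM in FAK-WT cells, 2.31 ± 0.62 in FAK-/- cells and 2.62 ± 0.741 in FAK-kd cells. Values of r of 0.95 or more were reached by 87 genes, or 0.716%, and 6 of the 10 leading genes were also among the leading 10 over the 8 libraries without FAK-WT replicate 1. The 9 libraries come from 3 lines, so the points are not independent, and r follows how the FAK-WT libraries differ from the rest. Among the other members r with Calcrl was -0.75 for Ramp3, -0.59 for Adm2, -0.45 for Ramp2 and 0.57 for Crcp.

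Markers of the cells in which Calcrl is best known were low. Of 9 endothelial markers 7 were in the table, and their summed level was 1.26 to 2.18 CPM in FAK-WT libraries, 0.479 to 0.986 in FAK-/- libraries and 0.419 to 0.732 in FAK-kd libraries. Pecam1, Kdr, Tek, Tie1, Vwf and Erg averaged at most 0.237 CPM in any line. Pecam1 and Vwf were lowest in FAK-WT cells, at 0.0769 and 0.0281 CPM against 0.22 and 0.237 in FAK-/- cells, and the median log2 difference of the 7 was -0.94 over FAK-/- cells. Cdh5, which encodes vascular endothelial cadherin, was the marker that moved with Calcrl, at 1.49 ± 0.416 CPM in FAK-WT cells, 0.142 ± 0.0331 in FAK-/- cells and 0.0195 ± 0.0338 in FAK-kd cells. It was past the threshold over FAK-/- cells (3.42, SE 0.53, adjusted p = 0.000272, edgeR) and over FAK-kd cells (adjusted p = 1.21e-05, edgeR), of which 1 library held 2 counts and the others 0. In FAK-WT replicate 1, Cdh5 and the endothelial sum of 1.26 CPM both rest on 1 count. The summed level of fibroblast and smooth muscle markers was lowest in FAK-WT cells, as was Ramp3. The marker sum was highest in FAK-kd cells, however, whereas Ramp3 was highest in FAK-/- cells. Of 8 such markers 7 were in the table, with a summed level of 20.1 to 26.0 CPM in FAK-WT libraries, 134 to 137 in FAK-/- libraries and 168 to 178 in FAK-kd libraries. In FAK-WT over FAK-/- cells 3 of these 7 were lower past the threshold (Acta2, Pdgfra and Pdgfrb) and 1 higher (Dcn). Of all genes, 3.06% were lower and 2.32% higher past it. DESeq2 called 3 of the 7 markers in this comparison. The Dcn call rests on low counts, with 0, 19 and 13 in FAK-WT libraries and 5, 0 and 3 in FAK-/- libraries. Acta2, the smooth muscle actin gene, had the largest of the 4 differences at 0.977 against 74.9 CPM. The part of these markers in the results on Calcrl and Ramp3 was not tested.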

How the data were processed

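RNA was sequenced from mouse SCC cells of 3 lines (FAK-WT, FAK-/- and FAK-kd), with 3 biological replicates each, grouped by the sample titles. The authors pseudoaligned paired-end reads with kallisto (0.43.1 in the submitters' processing notes) and used tximport to sum them per gene. The deposited values are estimated counts (expected counts) as whole numbers, not scaled to library size, for 19044 genes, and genes at zero in every library had been removed. The transcriptome release is not given in the sources used here, and the library kit does not mark strand. Symbols (18856 of 19044 identifiers) and positions came from GENCODE on mm10.

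Counts were tested with edgeR 4.0.16 in R 4.3.3 (TMM, quasi-likelihood test, 1 fit of all 9 libraries, Benjamini–Hochberg over all genes), in place of the study's DESeq2. CPM are TMM-scaled, and log2 CPM used a prior count of 2. Words of 31 bases were counted over the annotated transcripts. The fit was tested on simulated counts. With 779755 counts, FAK-WT replicate 1 is the least precise library. Replicates are labelled biological, and p-values measure the spread between these libraries. No pairing is stated, and deviations of same-numbered libraries correlated with a mean r of -0.00768 (9 pairs).

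The members and gene lists were chosen with earlier results of these data known. Named were all members and peptide partners (1 partner is not reported here), up to 4 genes per other list with the largest change among those past the threshold at a mean of at least 1 CPM, the 10 genes most like Calcrl, the nearest genes beside each member, and Ptk2. Cell type markers, and genes of a count of 5 or fewer, were named in addition after their values were seen. Alternatives were DESeq2 1.42.0, DESeq2 size factors, library size, filterByExpr, a minimum of 10 counts, fits restricted to a comparison's own groups, no fold-change minimum, a replicate block, another transcript length and each library left out.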

Additional observations from a re-analysis of the deposited data

Results flagged for a closer look

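No member was flagged. Among the other named genes, 7 were flagged because their FAK-/- libraries lay between the FAK-WT and the FAK-kd libraries, without overlap. That order sets every FAK-WT library apart from every FAK-kd library, so the choice of these genes fixed a difference between both lines. Their adjusted p-values in FAK-WT over FAK-kd cells (edgeR, all genes) are therefore given as a description, not as a separate test. Tfpi was higher there by 3.58 on the log2 scale (adjusted p = 1.14e-06), Car12 by 3.58 (adjusted p = 2.74e-10) and Asl, beside Crcp, by 0.48 (adjusted p = 0.00377). Glp1r stood at -2.67 (adjusted p = 3.95e-07), Pde4d at -2.01 (adjusted p = 1.64e-05), Adcy3 at -1.70 (adjusted p = 0.00123) and Acta2 at -6.22 (adjusted p = 8.65e-13). Glp1r, Adcy3 and Acta2 had 0 counts in FAK-WT replicate 1 and Pde4d had 1, and the floor of 3.78 CPM in that library lies above every FAK-/- value of Adcy3 and Pde4d.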

How the results depend on the processing

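Of 1051 alternative fold changes of named genes, 1020 kept their direction and their side of the threshold, 26 lost and 1 gained a call, and 4 changed sign. Calcrl kept its direction in both comparisons that chose it, at 3.21 to 3.69 and 2.93 to 3.36. The sign changes were among low or level genes without a call: Ramp2 in FAK-WT over FAK-/- cells without FAK-/- replicate 3 (0.90) or FAK-WT replicate 3 (0.02), with -0.43 to 0.90 over all libraries left out, Adm in FAK-WT over FAK-kd cells without FAK-kd replicate 3 (0.014, range -0.49 to 0.014), and Crcp in FAK-kd over FAK-/- cells without FAK-kd replicate 1 (-0.032, range -0.032 to 0.066). Adm2 in FAK-WT over FAK-kd cells lost its call with library size (-0.99) and DESeq2 (-0.95).

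Members past the threshold numbered 1, 2 and 0 in FAK-WT over FAK-/-, FAK-WT over FAK-kd and FAK-kd over FAK-/- cells. A minimum of 10 counts in every library left 0 in the first and 0 in the second, since Calcrl has 7 and Adm2 8 counts in FAK-WT replicate 1. Library size and DESeq2 gave 1 in the second. Without a fold-change minimum the counts were 2 in the first and 1 in the last. Leaving out 1 library gave 1 to 2 in the second and 0 to 1 in the last, where Ramp2 passed without FAK-/- replicate 3.

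Pathway genes past the threshold numbered 8, 7 and 3. The minimum of 10 counts left 0, 1 and 1, no fold-change minimum gave 27, 18 and 9, and DESeq2 gave 5 in FAK-WT over FAK-/- cells. Leaving out 1 library gave 6 to 9, 6 to 8 and 2 to 3. The replicate block kept 1, 2 and 0 members and gave 7, 6 and 3 pathway genes. It ended the call of Adcy3 in FAK-WT over FAK-/- cells (adjusted p = 0.0565), and the numbers do not pair the libraries. Levels per length with the longest transcript moved for Crcp to 26.6, 24.9 and 25.5 CPM per kb in FAK-WT, FAK-/- and FAK-kd cells, and lowered Ramp1 and Ramp2. Levels under 3.78 CPM lie under the floor of 3 counts in FAK-WT replicate 1, which limits Ramp1, Ramp2, Adm and Calcb. The same limit holds for other named genes. That library held 2 counts each of Arrb1, Epas1, Nr4a2 and Rhox2h, 1 each of Cdh5 and Slc2a9, and 0 of Pde4b.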
